A study of Mus musculus with 24 samples.

Results

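Livers of mice aged 20 weeks were compared between 2 genotypes, Mop3fxfxCreAlb (called Cre livers here) and Mop3fxfx (called floxed livers). The samples were taken by title and age, which gave 12 of the series' 24 arrays, 6 per genotype. All mice, controls included, were homozygous for floxed Mop3 on the C57Bl/6J strain, fed freely and kept in equal light and dark phases. Mop3 is an older name of Arntl (Bmal1). Cre recombinase was driven by the albumin promoter, which is active in hepatocytes, so Arntl in the other cells of the liver is not targeted. Mice with Cre but with unfloxed Arntl were not among the groups, so what Cre itself does and what loss of Arntl does cannot be told apart.

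Each array held a pool of liver RNA from at least 3 mice of 1 genotype and 1 zeitgeber time (ZT, hours after lights on). Times ran from ZT0 to ZT20 in steps of 4 h. Every pool was hybridised beside a common reference made from livers of both genotypes at 10 weeks. There was 1 array per genotype and time, so a p-value measures the spread around a fitted daily curve between pools, not between mice. Precision is limited by how few arrays there were.

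BMAL1, the protein encoded by Arntl, pairs with CLOCK or NPAS2 and binds E-box motifs in the promoters of Per, Cry, Nr1d1, Nr1d2 and Dbp. PER and CRY proteins then block the pair, and the nuclear receptors NR1D1 and NR1D2 repress genes that carry ROR elements, Arntl among them. In liver this clock times lipid, bile acid and drug metabolism, partly through DBP, TEF and HLF, which bind D-box motifs in genes of the cytochrome P450 system.

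Values are log2 ratios with Cy5 taken as the sample and Cy3 as the reference. This direction opposes the labels, which give Cy3 to the sample and Cy5 to the reference, and turning it changes the sign of every ratio and difference below. It was chosen because Cy5 varied more than Cy3 between arrays for 85.3, 94.6 and 89.4% of probes on the 3 slides. Arntl spanned 2.93, 2.28 and 0.62 log2 units in Cy5 on those slides and 0.36, 0.18 and 0.40 in Cy3. Over the genes tested the least alike arrays at 20 weeks, Cre ZT20 and floxed ZT8, correlated at -0.05.

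The genotypes lay mostly on different slides. One slide carried 4 floxed pools (ZT0 to ZT12), another carried 2 floxed pools (ZT16 and ZT20) with 2 Cre pools (ZT0 and ZT4), and the third, scanned on a later day, carried 4 Cre pools (ZT8 to ZT20). Median Cy5 intensity was 153.7 to 245.8 on floxed and 83.5 to 148.0 on Cre arrays, with no overlap. On the slide with both genotypes it was 153.7 and 163.1 on floxed and 148.0 and 142.6 on Cre arrays. The Cre arrays of the third slide had 83.5 to 109.0. Between 56.7 and 70.3% of probes were well above background in Cy5. The Cre pool of ZT4 stood apart in pancreas markers: all 9 measured were higher there than on any other array, with a mean log2 ratio of 4.23 against 0.01 to 0.62 elsewhere, and Cpb1 at 6.59 and Cela3b at 5.84. Over all called genes the Cre pool of ZT0 lay nearest the floxed arrays most often (56.8%, against 17.4% for ZT8), while among the 24 genes with the largest differences it was the Cre pool of ZT8, in 15 of 24. Without the Cre ZT0 pool 7336 genes were called, against the 5749 given below.

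Arntl itself was read by 1 probe, printed here because it is the check on the genotype labels. It is a 60-base sequence as the array files give it, with 1 open reading frame, and the labels do not say which exons are floxed, so it may lie outside the deleted segment.
Arntl probe: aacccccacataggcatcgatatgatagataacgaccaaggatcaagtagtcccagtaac

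In floxed livers the log2 ratio of Arntl was 1.60 at ZT0, 0.86 at ZT4, -1.72 at ZT8, -0.96 at ZT12, 0.98 at ZT16 and 1.52 at ZT20. In Cre livers it was 0.52, -0.29, -0.49, -0.59, -0.47 and -0.90 at the same times. Floxed pools were thus high through the night and at lights on and low at ZT8 and ZT12, where the Cre pools lay above them, and the groups overlap. The fitted amplitude, mean to peak, was 1.68 in floxed and 0.37 in Cre livers. Averaged over the day Arntl differed by -0.75 ± 0.27 (SE, 6 pools per genotype), lower in Cre in 4 of 6 matched times, which did not pass (limma adjusted p = 0.069). It passed without the floxed ZT8 pool (-0.94, adjusted p = 0.038) or the Cre ZT0 pool (-0.94, adjusted p = 0.021), and a slide block gave -0.21 ± 0.83 (adjusted p = 0.91).

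**Figure D1:**
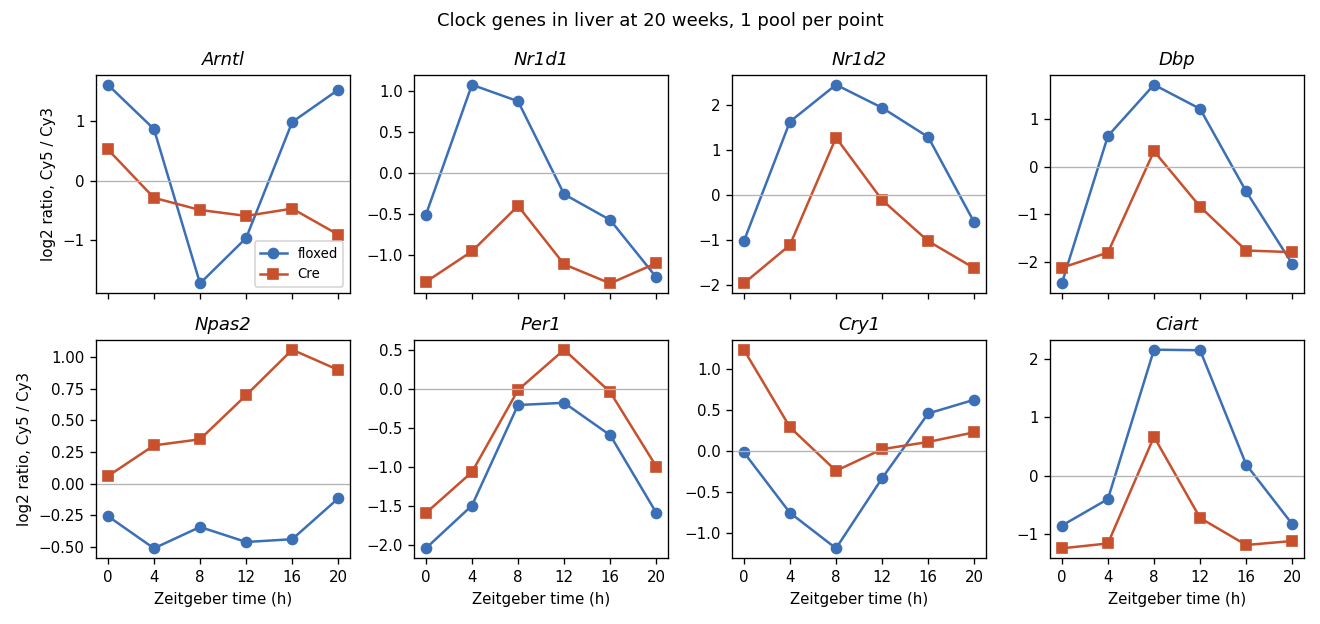
Log2 ratio (Cy5 over Cy3) against zeitgeber time in hours for 8 clock genes at 20 weeks, 1 pool per point, circles for floxed and squares for Cre livers. Arntl spans -1.72 to 1.60 in floxed and -0.90 to 0.52 in Cre pools, and Nr1d2 in each Cre pool lies below the floxed pool of its time. Npas2 is well above background on only 1 floxed array.

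Of 19929 genes tested, 5749 (28.8%) differed in level over the day at an adjusted p under 0.05, 2526 higher in Cre (12.7%) and 3223 lower (16.2%). The counts of gene lists below are to be read beside these shares. The difference is Cre minus floxed in a limma fit of genotype with cosine and sine terms of 24 h, adjusted by Benjamini-Hochberg over all genes. At least 2-fold differences were called for 210 genes higher and 313 lower. Adding slide as a block left 374 genes called (1.88%), while the median standard error rose from 0.10 to 0.26. Of the 374, 276 were also called without it and in the same direction. Only the slide with both genotypes separates genotype from slide, and its Cre and floxed pools were of different times. The estimate under the block therefore leans on the fitted daily curve. The sign was kept by 89.3% of the called genes under that block and by 96.6% of those called at 2-fold or more. With centring of each array on its median in place of loess, 1054 genes were called higher and 7601 lower. The median of all genes moved from -0.02 to -0.32, and values under median centring below are to be read beside that -0.32.

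Of 23 core clock genes measured, 5 were called higher in Cre livers, 6 lower and 12 did not pass, with a median difference of 0.01 against -0.02 over all genes. Among repressors that BMAL1 drives, Nr1d2 ran in floxed livers from -1.03 at ZT0 through 1.63, 2.45, 1.94 and 1.29 to -0.61 at ZT20, and in Cre livers at -1.97, -1.11, 1.27, -0.11, -1.03 and -1.63. Every Cre pool lay below the floxed pool of its time, although the groups overlap, and the Cre ZT8 pool was the highest of its group. The difference was -1.71 ± 0.30 (limma adjusted p = 0.0042).

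Its paralogue Nr1d1 fell by 0.93 ± 0.17 (limma adjusted p = 0.0051) and was lower at 5 of 6 times, and its 3 probes ran from -0.93 to 0.08. Nr1d1 reached 1.08 at ZT4 and 0.87 at ZT8 in floxed livers, while no Cre pool rose above -0.40. Both genes kept their call with the slide as a block, at -3.86 for Nr1d2 and -2.06 for Nr1d1. That estimate leans on the fitted curve, since the pools on the slide with both genotypes were of different times. The plain difference on that slide was -1.88 for Nr1d2 and -0.22 for Nr1d1. The repressor Bhlhe40 fell by 0.40 ± 0.12, a call lost when any 1 of 8 of the 12 pools was left out, such as Cre ZT4 (-0.31, limma adjusted p = 0.066). It did not pass with the slide as a fixed block (limma adjusted p = 0.21) or a random block (limma adjusted p = 0.068). Ciart, an inhibitor of the BMAL1 and CLOCK pair, fell by 1.19 ± 0.29. Ciart in the Cre ZT8 pool stood at 0.66 and in the other Cre pools between -1.24 and -0.73. Its probe was well above background on 3 Cre and 5 floxed arrays.

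The D-box activators gave a mixed picture. Dbp ran from -2.45 at ZT0 to 1.71 at ZT8 in floxed livers and from -2.12 at ZT0 to 0.32 at ZT8 in Cre livers, which gave fitted amplitudes of 2.18 and 0.99. Its level over the day differed by -1.09 ± 0.28 (limma adjusted p = 0.019, lower in 4 of 6 pairs), and 1 floxed pool was saturated. Tef differed by -0.71 ± 0.20 and also passed, but not when any 1 of 8 of the 12 pools was left out, such as Cre ZT4 (-0.57, limma adjusted p = 0.065). The 4 probes of Tef ran from -0.71 to -0.05. Dbp itself did not pass when any 1 of 4 of the 12 pools was left out, such as Cre ZT12 (-0.99, limma adjusted p = 0.051). Hlf, at 0.21 ± 0.12, did not pass, nor did Nfil3, the repressor that binds the same motif, at -0.15 ± 0.09.

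Of 10 listed genes with ROR elements, which NR1D1 and NR1D2 repress, 5 were called higher, 2 lower and 3 did not pass. Their median was 0.34. Under median centring it was -0.21, against -0.32 over all genes. Npas2, the partner that can replace CLOCK, stood between -0.51 and -0.12 in floxed and between 0.06 and 1.06 in Cre pools, a difference of 0.91 ± 0.10 (limma adjusted p = 8.1e-04). Its probe was well above background on all 6 Cre arrays but on only 1 floxed array, so the floxed values lie at background and the size is uncertain. Cry1, a clock repressor, was higher by 0.47 ± 0.15 in Cre livers (limma adjusted p = 0.042), but it was 0.06 under median centring and did not pass with the slide as a random block (adjusted p = 0.080) or when any 1 of 9 of the 12 pools was left out. Elovl3, a fatty acid elongase, stood at -3.44 at ZT12 in floxed livers while its Cre pools stayed between -0.10 and 1.01. The difference was 1.96 ± 0.14, with 1 Cre array saturated. E2f8, a cell cycle factor, was higher by 1.02 ± 0.19, with a second probe at -0.39 and -0.06 under the slide block.

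Per2, Per3, Cry2, Clock and Rora, with differences of 0.01, 0.03, 0.01, 0.21 and 0.23, did not pass. Per1, the PER gene that also responds to glucocorticoids, was higher by 0.48 ± 0.07 (limma adjusted p = 0.0025) with loess, and -0.10 under median centring. Its daily course was alike in size in both genotypes, with amplitudes of 1.01 in floxed and 1.04 in Cre livers. Csnk1d, a kinase of PER proteins, was higher by 0.40 ± 0.10 with loess and -0.30 under median centring. Among 18 E-box genes, a list that shares members with the core clock, 10 were called lower and 2 higher, with a median of -0.47. Outside the core loop these were led by the deubiquitinase Usp2 (-1.46 ± 0.24) and Nampt, the NAD salvage enzyme (-1.07 ± 0.13).

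The E-box sequence CACGTG was searched on both strands of the 250 bases before RefSeq gene starts (GRCm38.p6). It reads the same on both strands and is held by 6.02% of 32851 such windows, or 1854 of 27025 genes, and by 6 of 14 E-box genes and 5 of 20 core clock genes that have a window. The windows of the 3 called clock and target genes that hold it, by smallest p, are printed, since their differences point different ways with loess. The motif is in capitals. Per1 is at chr11:69098699-69098948 on the plus strand, Tspan4 at chr7:141476130-141476379 on the plus strand and Ciart at chr3:95882229-95882478 on the minus strand.
Per1: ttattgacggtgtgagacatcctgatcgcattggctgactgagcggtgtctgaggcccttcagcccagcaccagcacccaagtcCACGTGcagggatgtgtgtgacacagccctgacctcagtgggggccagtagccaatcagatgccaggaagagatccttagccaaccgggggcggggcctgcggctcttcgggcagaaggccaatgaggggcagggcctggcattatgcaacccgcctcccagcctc
Tspan4: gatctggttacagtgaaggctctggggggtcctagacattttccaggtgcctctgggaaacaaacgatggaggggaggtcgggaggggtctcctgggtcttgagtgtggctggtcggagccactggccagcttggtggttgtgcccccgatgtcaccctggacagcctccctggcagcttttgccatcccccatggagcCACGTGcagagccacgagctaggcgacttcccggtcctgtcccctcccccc
Ciart: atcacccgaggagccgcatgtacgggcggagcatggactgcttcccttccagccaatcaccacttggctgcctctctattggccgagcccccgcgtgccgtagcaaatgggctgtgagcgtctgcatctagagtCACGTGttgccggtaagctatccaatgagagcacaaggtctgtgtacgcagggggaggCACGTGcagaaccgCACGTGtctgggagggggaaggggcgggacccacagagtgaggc
Ciart holds 3 copies and Per1 and Tspan4 hold 1 copy each. Ciart and Tspan4, a tetraspanin (-0.54 ± 0.12, limma adjusted p = 0.011), were lower in Cre livers. Per1 was higher with loess but at -0.10 under median centring, and whether the motif goes with a direction was not tested. The D-box letters TTANGTAA and the ROR letters TAGGTCA, both strands, occur in 2.06 and 2.23% of windows. None of the called genes of the core clock, E-box and ROR lists held the ROR letters in its window.

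A test for a difference in daily course called 0 genes at 20 weeks by limma, with 1212 at an unadjusted p under 0.05. Rhythms were called for 11 genes in floxed livers (0.0552%) and 1 in Cre livers (0.00502%), against 2296 and 2895 at an unadjusted p under 0.05. The courses with the smallest p, given as values, included Spon2, a secreted matrix protein, which ran from 0.05 at ZT0 to -3.30 at ZT12 in floxed and only from 0.61 to -0.29 in Cre pools. Map2k6, a kinase upstream of p38, peaked at 1.34 at ZT12 in floxed livers and was at its lowest there in Cre livers (-0.67). The level differences of its 3 probes ran from -1.11 to -0.01.

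The largest rises over the day belonged to genes of unrelated function. The groups do not overlap for 23 of the 24 genes with the largest differences (8.28% of all genes). These were chosen by size and by 1 sign at all 6 times, among called genes with a symbol and without saturation in Cy5. Ntrk2, the BDNF receptor TrkB, stood at -1.86, -3.47, -3.41, -2.01, -3.69 and -3.50 from ZT0 to ZT20 in floxed livers. Its Cre pools stood at 1.98, 2.43, 0.99, 1.57, 2.14 and 1.56. The difference was 4.77 ± 0.41 (limma adjusted p = 3.7e-04), a 27.2-fold higher level, and its 3 probes ranged from 0.03 to 4.77.

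Lpl, lipoprotein lipase, which frees fatty acids from circulating triglycerides and is low in adult hepatocytes, stood between -3.94 and -2.15 in floxed and between 0.25 and 2.04 in Cre pools. It was higher by 4.32 ± 0.23, or 20.0-fold, with 2.78 at its other probe. Sult1e1, the oestrogen sulfotransferase, was flat in floxed livers (-2.99 to -2.36) and widely spread in Cre livers, from -0.50 at ZT8 to 3.02 at ZT4. Its difference was 3.68 ± 0.56, the least precise of the 24 genes.

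Grk5, which phosphorylates activated G protein-coupled receptors, rose by 2.78 ± 0.14, Ndrg1, a gene of the hypoxia and stress response, by 2.58 ± 0.14, and the cytochrome P450 Cyp2c55 by 2.51 ± 0.15. Ccn4, a secreted matricellular protein, rose by 2.33 ± 0.15, Chic1 by 2.18 ± 0.19 and choline kinase Chka by 2.17 ± 0.15. Chka swung between -2.76 and -0.49 over the day in floxed pools and held between 0.23 and 1.03 in Cre pools. The antimicrobial peptide Defb1 (1.95 ± 0.09), the haem-binding Hebp2 (1.94 ± 0.16) and the tetraspanin Cd9 (1.82 ± 0.27) complete the 12 highest.

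**Figure D2:**
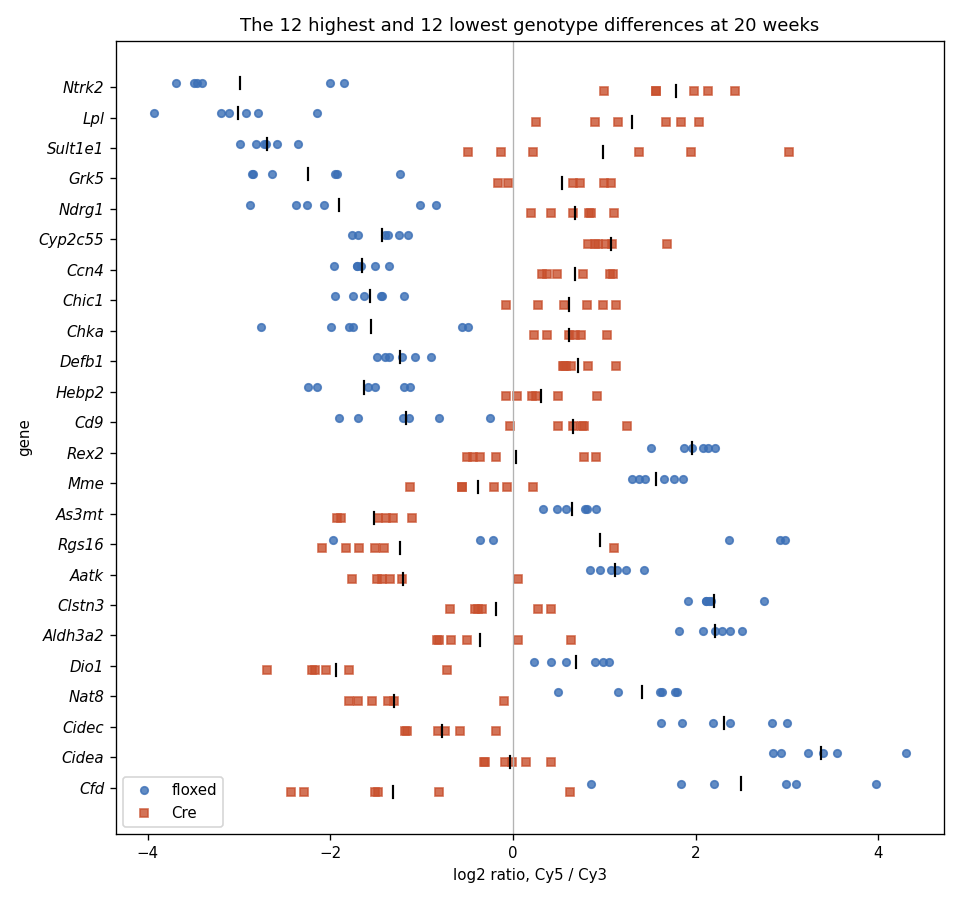
Log2 ratio (Cy5 over Cy3) of the 12 highest and 12 lowest genes at 20 weeks, with circles for the 6 floxed pools, squares for the 6 Cre pools and a bar at each group's mean. The groups are apart for 23 of the 24 genes, Rgs16 being the exception.

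The 3 lowest differences were those of Cfd, Cidea and Cidec. Cfd, adipsin, a serine protease of the complement system made mainly by fat, stood at 3.09, 1.84, 0.86, 2.20, 3.97 and 2.98 in floxed and at -0.81, -1.48, 0.63, -2.29, -2.43 and -1.52 in Cre pools. It was lower in Cre at each time, least so at ZT8, and the mean difference was -3.81 ± 0.43. Cidea, which enlarges lipid droplets, stood between 2.84 and 4.30 in floxed and between -0.32 and 0.41 in Cre pools (-3.40 ± 0.25). Its relative Cidec stood between 1.62 and 3.00 against -1.18 and -0.19 (-3.09 ± 0.26).

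Of 22 lipid droplet and adipose-type genes, 10 were called lower and 2 higher, with a median of -0.43 (-0.14 with the slide as a block). Fitm1, which acts in droplet formation, fell by 1.48 ± 0.12 and the monoglyceride lipase Mgll by 0.87 ± 0.09, while the fatty acid carrier Fabp4 was higher by 0.77 ± 0.14. The mean of 8 adipose tissue markers was 0.41 to 0.97 in floxed and -0.49 to 0.09 in Cre pools. Cfd and Cidea are themselves on that list. Of its other members Adipoq differed by 0.17, Lep by 0.01, Plin1 by -0.01 Retn by -0.03 and Car3 by -0.48, and none of these passed. Lep was well above background on 2 Cre arrays and 1 floxed array. In a bulk liver sample fewer cells of a type and less RNA per cell cannot be told apart.

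Other genes among the 12 lowest act in detoxification and hormone turnover. Nat8, an acetyltransferase of cysteine conjugates, fell by 2.71 ± 0.24, and Dio1, a deiodinase of thyroid hormone, by 2.63 ± 0.22. Aldh3a2, which oxidises fatty aldehydes, fell by 2.57 ± 0.22, As3mt, the arsenite methyltransferase, by 2.17 ± 0.13 and the peptidase Mme by 1.95 ± 0.17. Clstn3 (-2.39 ± 0.18), the kinase Aatk (-2.32 ± 0.21) and Rex2 (-1.93 ± 0.26, with a second probe at -0.02) were lower as well.

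Rgs16, a regulator of G protein signalling, had the largest fitted amplitude of the 12 in floxed livers (2.63), though its rhythm did not pass (limma adjusted p = 0.14). It stood at 2.36, 2.98 and 2.92 at ZT4 to ZT12 and at -1.97 at ZT20 in floxed livers. The Cre pools were all between -2.09 and -1.42 except the ZT8 pool at 1.11, and the difference was -2.19 ± 0.39. In the same Cre ZT8 pool Nat8 was -0.10 (other Cre pools -1.80 to -1.304) and Aatk was 0.05 (others -1.77 to -1.22). The part of that pool in the differences was tested by leaving it out: 4793 genes were then called, and 124 of 125 called genes examined singly kept their call, Cyb5r3 being the exception.

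**Figure D3:**
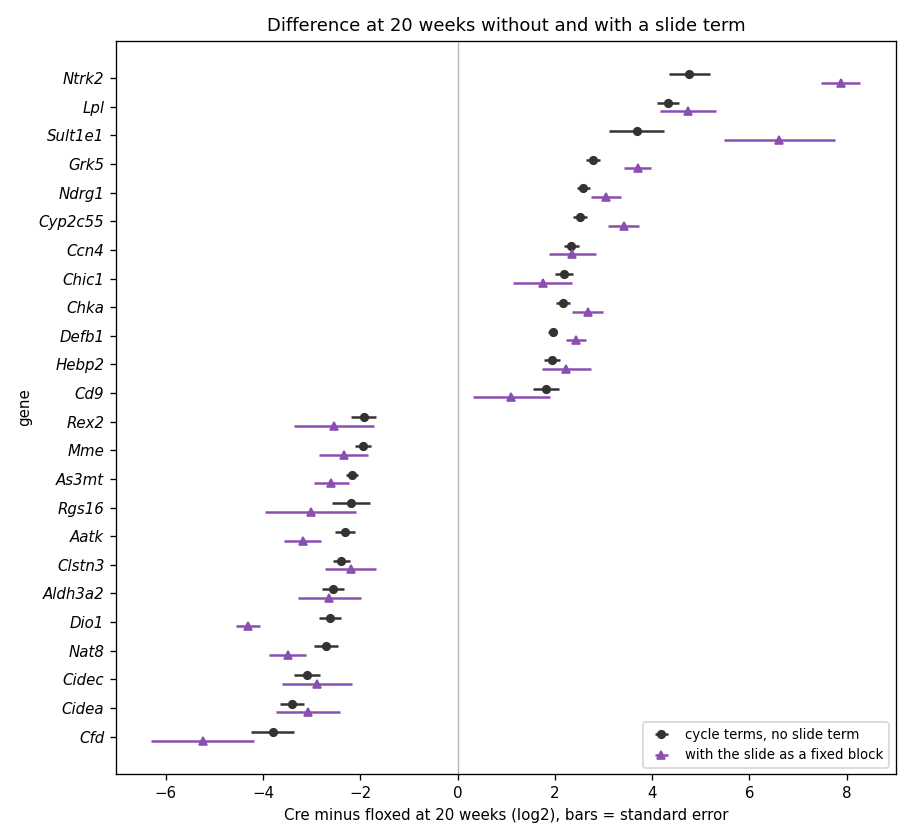
Difference between Cre and floxed livers at 20 weeks (log2, bars are standard errors) for the 24 genes, circles for the fit without a slide term and triangles with the slide as a fixed block. All 24 keep their sign and 12 keep their call, with wider errors.

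Under a slide block all 24 genes kept their sign and 12 kept their call, at 7.88 for Ntrk2, 4.73 for Lpl, 6.62 for Sult1e1, -3.49 for Nat8 and -4.31 for Dio1. Calls were lost by Cfd (-5.24, adjusted p = 0.062), Cidea (-3.08, adjusted p = 0.069) and Cidec (-2.89, adjusted p = 0.091), among others. On the slide that held both genotypes, the 2 Cre pools minus the 2 floxed pools, which were of other times, gave 5.80 for Ntrk2, 4.14 for Lpl, -4.62 for Cfd and -3.09 for Cidea. That slide's values carry time of day together with genotype. Of other called genes named below, the slide block brought Hamp2 to -0.20, Hfe to -0.10, Nr1h4 to -0.07, Cyc1 to -0.48, Sdhd to -0.39, Acot4 to -0.82, Foxo1 to -0.40, Hnrnpk to 0.48, Rps6 to 0.25 and Mbl1 to 0.15, and none of these kept its call.

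Fatty acid genes were lower as groups. Of 35 genes of fatty acid oxidation and PPARA targets, 15 were called lower and 3 higher, with a median of -0.38. Cpt1a, which admits fatty acids to mitochondria, fell by 1.09 ± 0.11 (limma adjusted p = 7.2e-04), from a floxed level that no Cre pool reached. The thioesterase Acot4 fell by 1.61 ± 0.17, the pantetheinase Vnn1 by 1.67 ± 0.19 and the peroxisomal thiolase Acaa1a by 0.67 ± 0.09. Ppara itself, the receptor that drives these genes, fell by 1.06 ± 0.17 and was among the calls kept with the slide as a block (-2.14), with the Cre ZT8 pool at 0.43 as the highest Cre value.

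Of 22 fatty acid synthesis genes, 11 were called lower and 2 higher, with a median of -0.40. The desaturase Fads2 fell by 0.999 ± 0.11, malic enzyme Me1 by 0.95 ± 0.15, the elongase Elovl1 by 0.56 ± 0.09 and Dgat1, which completes triglycerides, by 0.40 ± 0.07. Among 24 lipoprotein genes 8 were lower and 2 higher. Pltp, the phospholipid transfer protein, fell by 1.29 ± 0.08 and Lcat, which esterifies plasma cholesterol, by 0.79 ± 0.14, and both kept their call with the slide as a block.

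Sterol synthesis was the lipid list with more calls in the other direction, 7 higher and 2 lower of 25. Its median of 0.35 was -0.36 with the slide as a block. Under median centring it was also -0.36, against -0.32 over all genes. Insig2, which retains the SREBP escort in the ER, was higher by 1.38 ± 0.11 and the demethylating enzyme Msmo1 by 0.87 ± 0.19. Nsdhl, of the next steps, was lower by 0.90 ± 0.20, with 4 probes from -1.13 to 0.08. Fdps, higher by 0.61 ± 0.15 with loess, was -0.46 under the slide block and -0.07 under median centring. In bile acid synthesis Cyp7b1, an oxysterol hydroxylase, rose by 1.68 ± 0.29 (0.31 under the slide block, with 2 Cre arrays saturated) and Klb, the FGF co-receptor, fell by 0.71 ± 0.12, among 1 gene called higher and 6 lower of 19.

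**Figure D4:**
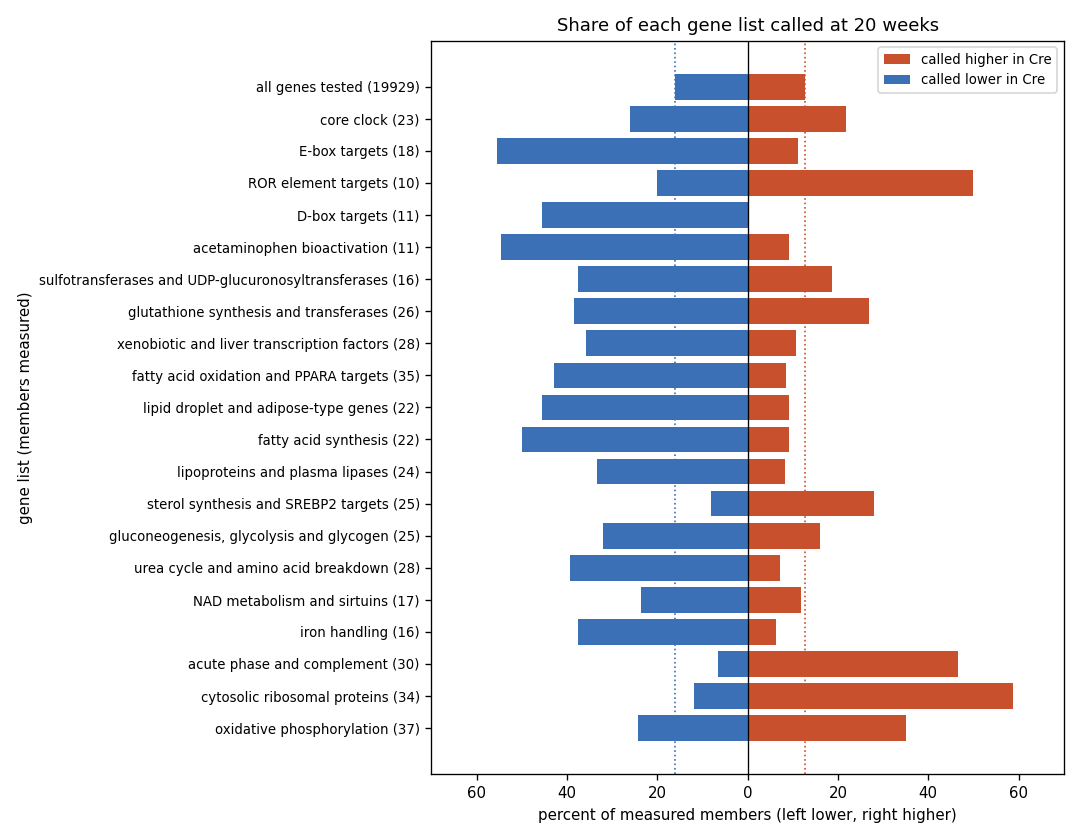
Percent of the measured members of each gene list called lower (left) and higher (right) in Cre livers at 20 weeks, with the number measured in parentheses and dotted lines at the shares over all genes. E-box targets and acetaminophen genes lean lower, and ribosomal and acute phase genes lean higher with loess. Under median centring the ribosomal and acute phase medians are -0.26 and -0.38, against -0.32 over all genes.

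The acetaminophen genes activate the drug to its reactive metabolite. Of 11 measured, 6 were called lower, 1 higher and 4 did not pass, with a median of -0.35. Cyp2e1, the P450 with the best known part in this step, stood at 0.90, 1.01, 1.3003, 1.45, 1.76 and 1.15 in floxed and at 0.45, -0.44, 0.34, 0.03, -0.29 and -0.51 in Cre pools. The groups do not overlap, and the difference was -1.33 ± 0.18 (limma adjusted p = 0.0016). Its probe was saturated on 4 floxed arrays and 1 Cre array, which compresses the floxed values.

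Por, the reductase that supplies electrons to all microsomal P450s, stood between -0.17 and 0.54 in floxed and between -1.60 and -0.48 in Cre pools (-1.17 ± 0.20, limma adjusted p = 0.0035, saturated on 3 floxed arrays). Cyp2a5 differed by -1.35 ± 0.22 and was saturated on all 6 floxed arrays and on no Cre array. Cyp3a13 fell by 1.02 ± 0.16, Cyb5r3, the cytochrome b5 reductase, by 0.53 ± 0.14 and Cyb5b by 0.35 ± 0.08. Under the slide block Cyb5r3 was -0.03 and Cyb5b 0.04, and Cyb5b was 0.01 with all probes averaged. Cyb5r3 did not pass without the Cre ZT4 pool (-0.49, adjusted p = 0.057) or the Cre ZT8 pool (-0.49, adjusted p = 0.056).

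Cyp3a11 was the member called higher (0.92 ± 0.16), with its probe saturated on all 12 arrays, so its size has no clear meaning. Cyp1a2 differed by 0.04 ± 0.26, higher in Cre at 3 of 6 times, and by -1.95 with the slide as a block. Cyp2d22 (-0.34), Cyp3a25 (-0.29) and Cyb5a (0.31) did not pass. With the slide as a block Cyp1a2 was the 1 gene of the list that passed.

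Conjugation genes differed in both directions. Of 16 sulfotransferases and glucuronosyltransferases, 6 were lower and 3 higher. Sult1a1, a phenol sulfotransferase, fell by 1.93 ± 0.15, Ugt1a9 by 0.82 ± 0.11 and Papss2, which makes the sulfate donor, by 0.52 ± 0.12, while Sult1d1 was higher by 0.82 ± 0.13. Of 26 glutathione genes 10 were lower and 7 higher. Gstm2 rose by 1.72 ± 0.17 and passed with the slide as a block (2.66), while Gstt1 fell by 1.03 ± 0.12 and Gpx4, which reduces lipid peroxides, by 0.66 ± 0.07. Gclm, a subunit of the enzyme that limits glutathione synthesis, fell by 1.03 ± 0.13. Of 21 NRF2 targets 7 were lower, with G6pdx, a source of NADPH, at -1.10 ± 0.16, and 4 higher.

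D-box genes gave 5 lower and 0 higher of 11, with a median of -0.39. Besides Por and Cyp2a5 they include Cyp2a4 (-2.27 ± 0.29), which was saturated in Cy5 on 3 of the 12 arrays. They also include the xenobiotic receptor Nr1i3, known as CAR (-0.49 ± 0.14, and -0.40 with limma adjusted p = 0.067 without the Cre ZT4 pool). Of 28 liver and xenobiotic transcription factors 10 were lower and 3 higher. The lower ones include Hnf4a (-0.53 ± 0.10, with probes from -0.53 to 0.30), the bile acid receptor Nr1h4 (-0.69 ± 0.13) and the oxysterol receptor Nr1h2 (-0.51 ± 0.09).

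In glucose metabolism 8 of 25 genes were lower (32%) and 4 higher (16%), against 16.2% and 12.7% over all genes. Gapdh fell by 0.96 ± 0.10, Eno1 by 0.90 ± 0.13, Pgk1 by 0.43 ± 0.06 and the glucose transporter Slc2a2 by 0.90 ± 0.14, with Gapdh saturated on 3 and Pgk1 on 4 floxed arrays. Of 21 genes of the insulin and IGF axis 3 were higher (14.3%) and 5 lower (23.8%). The insulin receptor substrate Irs1 was at 0.99 ± 0.19 and the fasting factor Foxo1 at -0.88 ± 0.13. Of 28 genes of the urea cycle and amino acid breakdown 11 were lower and 2 higher, with Asl at -1.07 ± 0.16, Prodh at -0.91 ± 0.11 and Kynu at 0.95 ± 0.10.

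Of 24 ATF4 and ER stress genes 7 were lower (29.2%) and 3 higher (12.5%), against 16.2% and 12.7% over all genes, with a median of -0.06. Trib3, a pseudokinase induced by ATF4, fell by 1.71 ± 0.16, with its probes between -1.71 and -0.09, and Shmt2 by 0.82 ± 0.10. The chaperone Hspb1 fell by 1.80 ± 0.23, on a list of 15 heat shock and cold-inducible genes with 4 higher and 3 lower. Of 16 glucocorticoid and fasting genes 5 were higher and 1 lower, with a median of 0.18. Under median centring it was -0.39, against -0.32 over all genes. Tsc22d3 (1.21 ± 0.11) and Ddit4 (1.07 ± 0.25) were higher with loess, and at 0.51 and 0.37 did not pass under median centring. Cell cycle genes gave 8 higher and 5 lower of 23, with the replication helicase subunit Mcm6 at 1.57 ± 0.24, Tyms at 0.73 ± 0.11 and Gadd45a at -1.07 ± 0.17.

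Lists of very bright genes leaned higher, and saturation moves with them. Of 34 ribosomal protein genes 20 were higher and 4 lower (median 0.42), but 23 were saturated on some array. Of 30 acute phase and complement genes 14 were higher and 2 lower (median 0.31), with 14 saturated. Of 12 secreted hepatocyte markers 6 were higher and 1 lower (median 0.54), with 11 saturated. Under median centring these 3 medians were -0.26, -0.38 and -0.13, against -0.32 over all genes. The acute phase and hepatocyte medians were -0.15 and -0.07 with the slide as a block. Unsaturated members that passed include Rps6 (0.81 ± 0.12) and the lectin Mbl1 (0.81 ± 0.13), which were 0.12 and 0.11 and did not pass under median centring, while Hc, complement C5 (0.81 ± 0.10), was saturated on 10 arrays. Without genes saturated on any array the medians were 0.31 for ribosomal and -0.20 for acute phase genes. For hepatocyte genes only the member with the lowest difference (-0.83) was left, so it gives no median of the list.

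Counts for markers of other liver cells stand beside 12.7% called higher and 16.2% called lower over all genes. Neutrophil markers gave 0 higher and 2 lower of 8, and red cell markers 0 higher and 2 lower of 4. Macrophage and Kupffer cell markers gave 0 higher and 2 lower of 14 (Cd68 at -0.55 ± 0.13), endothelial markers 1 higher and 2 lower of 12, stellate cell markers 2 higher and 0 lower of 13, and lymphocyte markers 0 higher and 2 lower of 12 (Cd79b at -0.59 ± 0.09). Cholangiocyte markers gave 2 of 10 each way, with Sox9 at 1.12 ± 0.13 and Spp1, osteopontin, at 1.12 ± 0.24. None of the 9 pancreas markers was called, their high values being those of the Cre ZT4 pool. Without that pool 4441 genes were called, and 120 of the same 125 genes kept their call, the others being Bhlhe40, Cry1, Cyb5r3, Nr1i3 and Tef.

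The same contrast at 10 weeks, on other slides with the same reference pool, called 640 genes (3.21%). There the floxed and Cre pools of a time shared a slide except at ZT16, while at 20 weeks no such pair did. Of the 640 genes, 206 were called higher and 199 lower at both ages. That is 63.3% of the 10-week list and 7.04% of the 20-week list, and 6 genes were called in opposite directions. Of the 24 genes with the largest differences 21 were called at 10 weeks, in the same direction. Ntrk2 was 4.47 ± 0.23 at 10 weeks, Cyp2c55 3.09 ± 0.30 and Nat8 -3.23 ± 0.34.

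The difference between the ages was called for 1977 genes (9.92%), 641 more positive at 20 weeks (3.22%) and 1336 more negative (6.70%). Under a slide block 6 genes passed. The count was 942 without the Cre ZT16 pool, 944 without Cre ZT20, 1030 without floxed ZT8, 1224 without Cre ZT12, 1298 without floxed ZT16, 1311 without floxed ZT20, 3024 without floxed ZT0 and 4317 without Cre ZT0. Of the 1977 genes 116 were saturated on at least 1 of the 24 arrays. The ages lay on different slides, so age and slide cannot be told apart here. Genotype also goes with slide mostly at 20 weeks, so that layout and a change with age cannot be told apart either.

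Cidea had the smallest p of that test. It differed by -0.21 ± 0.08 between genotypes at 10 weeks and by -3.40 ± 0.25 at 20 weeks (difference of the differences -3.19 ± 0.26, limma adjusted p = 3.1e-06). Its floxed pools at 20 weeks, all between 2.84 and 4.30, are far above the reference made from 10-week livers, while the Cre pools lie near 0. Cidec went from -1.42 ± 0.18 to -3.09 ± 0.26, and Cfd from -2.30 ± 0.29 to -3.81 ± 0.43, which did not pass (adjusted p = 0.14).

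Other genes more negative at 20 weeks were the transcriptional regulator Epop (-0.04 at 10 and -1.31 at 20 weeks), Cystm1 (0.21 and -0.79), Sh2d3c (0.06 and -0.66) and the mitophagy receptor Bnip3l (-0.16 and -1.09). A second probe of Bnip3l differed by -0.24 at 20 weeks. Ly6a, the stem cell antigen Sca-1, was called at both ages in opposite directions, 0.68 at 10 weeks and -0.82 at 20 weeks. Hamp2, a relative of hepcidin, went from 0.64 to -1.53. Hfe (0.03 and -0.86) and Smad6 (0.05 and -1.001), which act in hepcidin control, went in the same direction. Under the slide block the 20-week differences of Hamp2 and Hfe were only -0.20 and -0.10, and neither passed. Cyc1 (-0.14 and -1.26) and Sdhd (-0.24 and -1.03), subunits of the respiratory chain, were more negative too. Of the 37 oxidative phosphorylation genes, however, 8 were called more positive at 20 weeks and 3 more negative.

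Among genes with a symbol and unsaturated in Cy5 at 20 weeks, 6 were taken as more positive with the smallest p. They included the RNA-binding proteins Hnrnpk (-0.06 and 0.82), Khdrbs1 (0.12 and 1.06) and the helicase Dhx9 (0.11 and 1.15). Their other probes differed from these at 20 weeks, down to 0.17 for Hnrnpk, -0.63 for Khdrbs1 and -0.04 for Dhx9. Gbe1, the glycogen branching enzyme, went from -0.31 to 0.43 with loess, and its 20-week difference was -0.26 under median centring. Slc49a4 (-0.39 and 1.03, with a second probe at 0.0016 at 20 weeks) and AY036118 (-0.13 and 0.98) complete the 6.

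Among clock genes Cry1 was the 1 member called for a difference between the ages, 1.51 ± 0.17 at 10 and 0.47 ± 0.15 at 20 weeks. Chka (0.84 and 2.17), Chic1 (1.10 and 2.18) and Lpl (3.29 and 4.32) were further apart at 20 weeks.

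**Figure D5:**
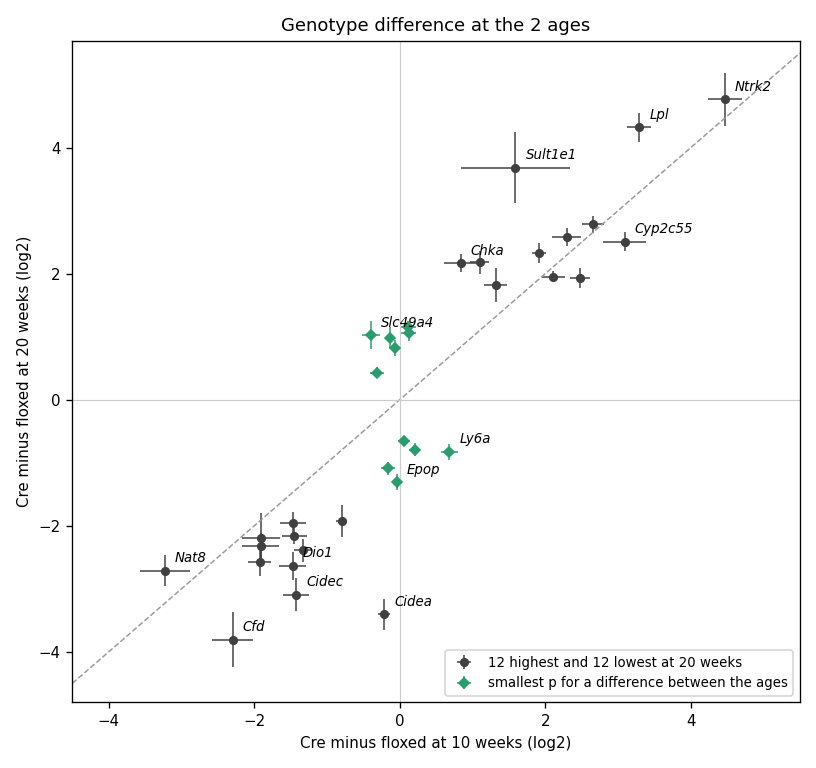
Difference between Cre and floxed livers at 10 weeks (horizontal) and 20 weeks (vertical), log2 with standard errors. Circles mark the 24 genes with the largest differences. Diamonds mark 11 further genes with the smallest p for a difference between the ages, among genes unsaturated in Cy5 at 20 weeks. The dashed line marks equal values. Cidea lies near 0 at 10 weeks and at -3.40 at 20 weeks, while Ntrk2 lies near the line.

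Few genes were below background in 1 genotype and above it in the other. Cdx4 and C2cd4b were well above background on all 6 Cre and on no floxed array, and were at least 1.78-fold and 1.68-fold higher in Cre. These bounds set the mean Cy5 signal of the bright group against the lowest signal among probes well above background on each array of the dim group. Plcxd1 was at least 1.37-fold lower.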

How the data were processed

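Liver RNA was measured on 2-colour Agilent arrays. The deposited files hold spot intensity values and the authors' log10 ratio from Agilent Feature Extraction 9.1.3.1, per the file headers. Intensities were corrected with normexp (offset 50) and loess-normalised within arrays in limma 3.58.1 (R 4.3.3), with control spots and outlier flags at weight 0. Spots of a probe were averaged, and a gene was read by its brightest probe if at least 3 of the 12 arrays had it well above background in Cy5. This kept 29392 of 41174 probes and 19929 genes. The fit held genotype and 24 h cosine and sine terms per genotype. Symbols and promoter windows came from RefSeq (GRCm38.p6).

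The members and gene lists were chosen with earlier results of these data known. Named genes were Arntl, the 12 highest and 12 lowest called differences of 1 sign at all 6 times (unsaturated, with a symbol), the 6 smallest p each way for age, all core clock and acetaminophen genes, and up to 4 called members of each other list, plus rhythm differences and bounds. 1 gene that this rule names is not reported here. Alternatives covered filters, background, normalisation, slide, scan day, pairing and each array left out. The steps were tested on simulated data.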

Additional observations from a re-analysis of the deposited data

Results flagged for a closer look

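In 20 of 280 groups of 6 pools examined, 1 pool lay so far from the nearest other that the gap exceeded Dixon's critical value. Chance flags about 1 in 20 groups if all 6 values are alike in kind. Values within a group were of different times of day and genes shared arrays, so that rate is only a guide here. The log2 ratios of these pools were: Cyp2c55, Cre ZT4 (1.69), Nat8, Cre ZT8 (-0.10), Clstn3, floxed ZT0 (2.75), Aatk, Cre ZT8 (0.0495), Rgs16, Cre ZT8 (1.11), Bnip3l, floxed ZT0 (0.50), Cry1, Cre ZT0 (1.23), Csnk1d, floxed ZT0 (-0.14), Csnk1d, Cre ZT8 (-0.54) and Ciart, Cre ZT8 (0.66). The others were Clock, Cre ZT0 (0.24), Fdps, floxed ZT12 (-1.27), Cyp3a25, Cre ZT20 (-0.36), Cyp2a5, Cre ZT8 (0.46), G6pdx, floxed ZT4 (1.56), Ppara, Cre ZT8 (0.43), Hfe, floxed ZT0 (1.03), Smad6, Cre ZT0 (0.0366), Rps6, floxed ZT4 (-0.18) and mean of pancreas markers, Cre ZT4 (4.23). The Cre ZT8 pool accounts for 7 of them, and the pancreas mean of the Cre ZT4 pool is the largest value.

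The genotype difference itself differed between 20 and 10 weeks by the limma age test (adjusted p under 0.05) for 48 of the 137 genes examined singly, against 9.92% of all genes. The 137 include the 6 genes each way chosen by the smallest p of this same test, so the count was partly fixed by that choice. Values are the 20-week minus the 10-week difference in log2 units. More positive at 20 weeks were AY036118 (1.12), Chic1 (1.08), Chka (1.33), Cyp3a11 (1.01), Cyp7b1 (1.48), Dhx9 (1.04), Fabp4 (0.56), Gbe1 (0.74), Gstm1 (1.53), Hc (0.85), Hnrnpk (0.89), Khdrbs1 (0.94), Lpl (1.03), Mbl1 (0.75) and Slc49a4 (1.42). More negative were Acot4 (-0.80), Bnip3l (-0.92), Cd68 (-0.60), Cd79b (-0.93), Cidea (-3.19), Cidec (-1.67), Clstn3 (-1.06), Cpt1a (-0.64), Cry1 (-1.03), Cyc1 (-1.11), Cyp2e1 (-1.26), Cyp3a25 (-0.74), Cystm1 (-1.00008), Elovl1 (-0.76), Epop (-1.27) and Fads2 (-0.64). Also more negative were Foxo1 (-0.77), G6pdx (-1.25), Gclm (-0.79), Gpx4 (-0.62), Gstm2 (-0.86), Hamp2 (-2.17), Hfe (-0.89), Ly6a (-1.51), Map2k6 (-0.81), Nampt (-0.71), Nsdhl (-1.60), Pltp (-1.03), Rex2 (-1.13), Sdhd (-0.79), Sh2d3c (-0.72), Smad6 (-1.05) and Vnn1 (-0.91). The probes of Cyp2e1, Cyp3a11, Cyp7b1, Gstm1 and Hc were saturated in both channels on 9 to 11 of the 12 arrays at 10 weeks, so their differences between the ages cannot be read, and Cyp3a25 and Hnrnpk were saturated in Cy5 on 2 and 4 of those arrays. The part of slide in these differences was not tested apart from age, and 6 genes of all those tested passed with the slide as a block.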

How the results depend on the processing

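The number of genes called was 8655 with median centring (1054 higher, 7601 lower), 374 with the slide as a fixed block (169 higher, 205 lower), 3703 with it as a random block (1537 higher), 78 with the scan day as a block (30 higher, 48 lower) and 9299 with array weights (4389 higher, 4910 lower). Leaving out each replicate in turn gave 3997 to 7336 called, 1659 to 3364 higher and 2338 to 3972 lower. Arntl was -1.36 with median centring, -0.75 with all 24 arrays in 1 fit (limma adjusted p = 0.018) and -0.85 with array weights, each past the threshold, and -0.94 to -0.54 with each replicate left out. Rhythms in floxed and Cre livers numbered 7 and 2 with no filter, 3 and 0 with the authors' log ratio and 5 and 0 with the slide block, and with each replicate left out 0 to 15 and 0 to 8, while differences of rhythm stayed at 0. The age difference counted 1084 genes with the authors' log ratio, 6 with the slide block, 3524 with matched age and ZT as a replicate block and 942 to 4317 with each replicate left out. Median centring turned Gbe1 to -0.26, Per1 to -0.10, Csnk1d to -0.30, Fdps to -0.0745, Hlf to -0.48, Rora to -0.46 and Cyp1a2 to -0.66. It kept 98 of 125 calls of genes examined singly, and among those lost were Cry1, Hnrnpk, Dhx9, Khdrbs1, Slc49a4, AY036118, E2f8, Msmo1, Sult1d1, Kynu, Tyms, Irs1, Sox9, Spp1 and Fabp4. Leaving out 1 pool lost the call of 7 of the 125 genes for at least 1 pool: Bhlhe40, Cry1, Csnk1d, Cyb5r3, Dbp, Nr1i3 and Tef. The slide block kept 31 calls. The slide block turned E2f8 to -0.0620, Fdps to -0.46, Cyp1a2 to -1.95 and Cyb5b to 0.0400, and averaging probes turned Cyb5b to 0.01455. The cause of these changes was not tested. Pools of the same ZT correlated in their deviations at 0.51, -0.08, 0.47, 0.22, 0.32 and 0.35 from ZT0 to ZT20. With the shared times as a replicate block 6195 genes were called. Signal over background limits dim genes, and saturation limits bright ones.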

Other observations

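Iron genes leaned lower in Cre livers at 20 weeks, with 6 of 16 called lower and 1 higher (median -0.22). Haem synthesis and breakdown gave 5 lower and 1 higher of 12 (median -0.30). Interferon response and antigen presentation genes gave 8 higher and 2 lower of 25, with a median of 0.10 with loess. Under median centring it was -0.30, against -0.32 over all genes. Proteasome genes gave 5 higher (16.1%) and 8 lower (25.8%) of 31, against 12.7% and 16.2% over all genes. Oxidative phosphorylation genes gave 13 higher (35.1%) and 9 lower (24.3%) of 37.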
